A study of Mus musculus with 14 samples.

Results

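The genes described here encode enzymes of the primary granules of early granulocytes, with 3 proteins that mark the same cells. They are Mpo, Elane, Prtn3, Ctsg, Ctsc, Ms4a3, Lyz2 and Gstm1, 8 of the 18194 genes that could be read on the arrays. They were taken as every probe set that the platform annotation gives to these symbols, 13 of 45101, of which 0 also name another gene. A gene with several probe sets is reported at the brightest of them, by mean intensity. RNA was measured in bone marrow progenitors of wild-type mice (WT, Tet2+/+) and of littermates lacking Tet2 (KO, Tet2-/-), all carrying Mx and on a mixed B6/129 background. Tet2 encodes a dioxygenase that acts on methylated cytosine in DNA. The deletion was induced by injection of pIC. Recombinase under the Mx promoter is known to act in many interferon-responsive cell types, not in blood progenitors alone.

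The 7 groups had 2 arrays each. WT LSK and KO LSK lack lineage markers and carry both c-Kit and Sca1, a population that includes blood stem cells. WT CMP and KO CMP are Sca1-negative, CD34-positive cells with low Fc gamma receptor, and WT GMP and KO GMP have high Fc gamma receptor. LSK and CMP were taken 4 weeks after deletion, and the labels give no time for GMP and no age for any group. KO CFU 5th came from CD150+ LSK cells without Tet2 after 5 platings in culture, called replated cells here. No replated WT group was analysed here, so genotype cannot be told apart from culture in any comparison of replated with WT cells, and replated cells were compared only with sorted KO cells. The labels do not say whether the arrays within a group came from separate animals or cultures. The p-values therefore measure the spread between these samples, which may be technical.

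Primary (azurophilic) granules are made at the promyelocyte stage, early in granulocyte development. They carry myeloperoxidase, which makes hypochlorous acid, and the serine proteases neutrophil elastase, proteinase 3 and cathepsin G, which are activated by the cysteine protease cathepsin C. The transcription factors C/EBP alpha, PU.1, RUNX1 and MYB are known to act on promoters of these genes, and the genes are commonly used to mark the step from the common myeloid (CMP) to the granulocyte-macrophage progenitor (GMP).

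The sequences upstream of the genes are shown because 6 of these genes rose from LSK to GMP and 4 of them were at background in replated cells. They are the 250 bases before the RefSeq start site (build GRCm38.p6), read 5′ to 3′ on the strand of the gene, for the 6 genes that rose. Capitals mark matches, on either strand, to PU.1 (AGGAAGT), MYB (CAACNG or TAACNG), RUNX (TGTGGT) or C/EBP (TTGCNNAA), and these patterns do not contain one another.
Mpo, chr11:87793534-87793783, plus strand: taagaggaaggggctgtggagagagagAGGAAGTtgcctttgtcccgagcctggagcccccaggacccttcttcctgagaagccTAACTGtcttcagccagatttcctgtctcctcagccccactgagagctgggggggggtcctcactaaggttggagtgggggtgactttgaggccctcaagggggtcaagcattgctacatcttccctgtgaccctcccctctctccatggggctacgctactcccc
Elane, chr10:79886062-79886311, plus strand: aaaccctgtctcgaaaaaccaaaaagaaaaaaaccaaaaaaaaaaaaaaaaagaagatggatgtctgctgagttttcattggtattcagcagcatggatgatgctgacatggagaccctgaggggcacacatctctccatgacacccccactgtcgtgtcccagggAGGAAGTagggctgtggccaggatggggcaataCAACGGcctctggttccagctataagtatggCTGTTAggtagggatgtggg
Prtn3, chr10:79879417-79879666, plus strand: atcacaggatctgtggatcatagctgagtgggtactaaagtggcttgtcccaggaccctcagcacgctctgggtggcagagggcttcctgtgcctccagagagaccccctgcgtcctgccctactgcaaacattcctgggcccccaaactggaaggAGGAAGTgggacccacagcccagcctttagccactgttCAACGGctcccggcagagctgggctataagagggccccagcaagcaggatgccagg
Ctsg, chr14:56102575-56102824, minus strand: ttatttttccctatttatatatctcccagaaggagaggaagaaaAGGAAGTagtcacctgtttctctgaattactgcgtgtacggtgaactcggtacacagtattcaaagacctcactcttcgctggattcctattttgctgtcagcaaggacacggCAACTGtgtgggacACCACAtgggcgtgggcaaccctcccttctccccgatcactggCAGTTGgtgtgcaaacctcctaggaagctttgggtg
Ms4a3, chr19:11640852-11641101, minus strand: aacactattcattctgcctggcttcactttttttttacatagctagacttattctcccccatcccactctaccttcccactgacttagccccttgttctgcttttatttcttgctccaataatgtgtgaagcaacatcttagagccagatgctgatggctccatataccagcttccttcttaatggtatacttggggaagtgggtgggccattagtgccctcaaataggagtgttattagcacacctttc
Gstm1, the first of 2 RefSeq starts, chr3:108017819-108018068, minus strand: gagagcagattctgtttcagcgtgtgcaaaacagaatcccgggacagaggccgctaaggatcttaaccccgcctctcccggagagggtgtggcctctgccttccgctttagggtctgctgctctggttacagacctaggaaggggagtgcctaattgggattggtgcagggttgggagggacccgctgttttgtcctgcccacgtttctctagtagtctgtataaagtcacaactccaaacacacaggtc

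The PU.1 letters were found upstream of Mpo, Elane, Prtn3 and Ctsg in the orientation of the gene, and on the opposite strand upstream of Ctsc and Lyz2. That is 6 of the 8 genes, against 7.69% of 32851 promoter windows of this length outside chromosome 18. Elane and Prtn3 share the same arrangement, with PU.1 letters 84 to 78 and 94 to 88 bases before the start and the MYB match CAACGG 51 to 46 and 56 to 51 bases before it. The MYB letters were found in 5 of 8 genes, against 43.1% of all windows, and the RUNX letters in Ctsg and Lyz2, against 14%. The C/EBP letters were upstream of 0 of the 8 genes, against 9.56% of all windows. The windows of Ms4a3 and both windows of Gstm1 held none of the 4 motifs. A match describes the letters only.

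The values are RMA intensities, a measure of probe brightness after background correction and normalization between arrays. They cannot be compared between genes, because each probe set has its own brightness. The brightest bacterial control of each array, which lay between 20.8 and 27.8, is called its floor, and an intensity at or below the floor of its own array is taken as background. Array medians lay between 31.16 and 32.98. Differences were tested with limma over all 18194 genes with Benjamini-Hochberg adjustment, and a gene passed at an adjusted p below 0.05. Differences are on the log2 scale with the standard error (SE) of the fit. Where 2 groups of 2 arrays do not differ, their arrays still fail to overlap with a probability of 0.333. Overlap is therefore given as description only.

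Markers of the gates were read in the sorted populations. Summed intensity of 7 LSK markers was 10240 to 13210 on LSK arrays, 3429 to 6193 on CMP arrays and 1425 to 1779 on GMP arrays. Of 4 genes of the CMP and GMP gates (Kit, Cd34, Fcgr2b and Fcgr3), 1 rose and 0 fell from CMP to GMP in each genotype. In each, 2 of the 4 differences lay above 0. Fcgr3, an Fc gamma receptor of the gate, was 633.7 to 667.5 in WT CMP and 4297 to 5002 in WT GMP. The arrays of the sorted genotypes also differed in sex-linked genes. Xist was 18.7 to 29.7 on the 6 WT arrays and 4980 to 6630 on the 6 sorted KO arrays, and Eif2s3y of the Y chromosome was 772 to 1200 and 6.47 to 12.5. Genotype and sex therefore cannot be told apart in the sorted cells. Replated KO cells had Xist at 18.4 to 21.9 and Eif2s3y at 2060 to 2080, so their sex-linked genes were like those of WT and unlike those of the sorted KO cells they are compared with. The brightest Tet2 probe set read 454 to 2040 in WT, 855 to 2380 in sorted KO and 1790 to 1820 in replated cells, and whether it lies in the deleted part was not analysed here.

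Myeloperoxidase (Mpo) was already bright in LSK and brightest in GMP. Its intensity was 6472 and 7049 in WT LSK, 10550 and 10479 in WT CMP and 12628 and 12139 in WT GMP. In KO cells it was 7229 and 7735 in LSK, 10176 and 10163 in CMP and 12425 and 12276 in GMP. The arrays of the 3 populations did not overlap in either genotype. Mpo rose from WT LSK to WT GMP by 0.87 ± 0.11 (1.83-fold, limma adjusted p = 0.00173) and from KO LSK to KO GMP by 0.72 ± 0.11 (1.65-fold, adjusted p = 0.00575). On 8 arrays Mpo lay within 2-fold of the brightest probe set of the array, at the nearest within 1.44-fold, and compression of its differences near the top of the scale was not tested.

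Neutrophil elastase (Elane) had the widest range among the sorted cells of these genes. It was 1279 and 1158 in WT LSK, 2821 and 2660 in WT CMP and 7528 and 7634 in WT GMP. In KO cells it was 1357 and 1640, 2106 and 1996, and 7321 and 7234. Each population stood clear of the next in both genotypes. The rise from LSK to GMP was 2.64 ± 0.16 in WT (6.23-fold, limma adjusted p = 6.67e-05) and 2.29 ± 0.16 in KO (4.88-fold, adjusted p = 0.000124).

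Proteinase 3 (Prtn3), encoded by the gene next to Elane on chromosome 10, followed the same order. It was 1591 and 2479 in WT LSK, 4360 and 4101 in WT CMP and 8250 and 8556 in WT GMP. The KO arrays read 2027 and 1856, 4101 and 3896, and 7652 and 7802. The WT LSK arrays lay far apart but below every CMP array. From LSK to GMP Prtn3 rose by 2.08 ± 0.26 in WT (4.23-fold, limma adjusted p = 0.00173) and 1.99 ± 0.26 in KO (3.98-fold, adjusted p = 0.00287).

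Cathepsin G (Ctsg), a serine protease encoded in the mast cell protease and granzyme cluster on chromosome 14, reached most of its level by the CMP. It was 2226 and 3491 in WT LSK, 8175 and 7798 in WT CMP and 11227 and 11109 in WT GMP. In KO cells it was 3044 and 3808, 7646 and 7728, and 10875 and 10468. GMP arrays were above CMP arrays, and those above LSK arrays, without overlap. Ctsg rose from LSK to GMP by 2.00 ± 0.20 in WT (4.01-fold, limma adjusted p = 0.000582) and 1.65 ± 0.20 in KO (3.13-fold, adjusted p = 0.00204). It lay within 2-fold of the array maximum on 4 arrays, and compression of its differences was not tested.

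Ms4a3, a four-span membrane protein of the MS4A family used as a marker of granulocyte-monocyte progenitors, rose with the proteases. It was 2630 and 2214 in WT LSK, 4055 and 4051 in WT CMP and 8339 and 9311 in WT GMP. KO arrays read 2822 and 2567, 3717 and 3385, and 8119 and 7739. The 3 populations did not overlap in either genotype, and the rise from LSK to GMP was 1.87 ± 0.14 in WT (3.65-fold, limma adjusted p = 0.000139) and 1.56 ± 0.14 in KO (2.94-fold, adjusted p = 0.000409).

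Gstm1, a mu-class glutathione S-transferase that conjugates glutathione to reactive compounds, had a different course. It was 1038 and 1055 in WT LSK, 898 and 835 in WT CMP and 3819 and 3477 in WT GMP. In KO cells it was 1068 and 1071, 707 and 603, and 2407 and 2369. At its brightest probe set the CMP was the lowest of the sorted populations and the GMP the highest, with no overlap. The fall from LSK to CMP did not pass in WT (-0.27 ± 0.12, limma adjusted p = 0.44). Gstm1 rose from LSK to GMP by 1.80 ± 0.12 in WT (3.48-fold, limma adjusted p = 9.77e-05) and 1.16 ± 0.12 in KO (2.23-fold, adjusted p = 0.00116). Its brightest probe set is of a type that can hybridise with related transcripts. A second probe set without that mark, at 3712 and 3486 in WT GMP and 2304 and 2380 in KO GMP, gave a rise of 1.89 ± 0.12 in WT. Another rose by 1.87 ± 0.19 in WT, but its KO LSK arrays (83.8 and 112) and KO CMP arrays (96.8 and 97.6) overlapped. The last was below the floor on every array but 1.

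Cathepsin C (Ctsc), the protease that activates the granule serine proteases, did not pass between any sorted populations of the same genotype. It was 1392 and 882 in WT LSK, 1254 and 1379 in WT CMP and 1419 and 1473 in WT GMP, and KO arrays read 1662 and 1595, 1265 and 1457, and 1487 and 1859. The order of the levels was CMP, LSK, GMP in KO and LSK, CMP, GMP in WT, and no neighbouring pair in either order passed the test. WT GMP arrays lay above those of WT LSK and WT CMP, and KO CMP arrays below those of KO LSK and KO GMP. The difference from LSK to GMP was 0.38 ± 0.22 in WT (limma adjusted p = 0.37) and 0.03 ± 0.22 in KO (adjusted p = 0.959). The 95% interval in WT, -0.11 to 0.88, allows a rise of up to 1.84-fold. Its other probe sets read 47.4 to 212 and 106.4 to 903.4 over the 14 arrays and did not pass in WT either, with differences of -0.50 ± 0.50 and -1.08 ± 0.78.

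Lysozyme 2 (Lyz2), which cleaves bacterial cell walls and is made throughout granulocyte and macrophage development, did not rise toward the GMP. It was 3081 and 3538 in WT LSK, 2662 and 2518 in WT CMP and 2567 and 2729 in WT GMP. KO cells read 3721 and 3317, 3322 and 3430, and 3234 and 3578. WT LSK was the highest WT population, and the difference to WT GMP of -0.32 ± 0.20 did not pass (limma adjusted p = 0.409, 95% interval -0.76 to 0.12). Lyz1, its neighbour on chromosome 10, has a similar sequence, so the probe sets may share signal. It ran beside Lyz2, at 4329 to 4487 in WT LSK and 3296 to 3714 in WT GMP.

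**Figure D1:**
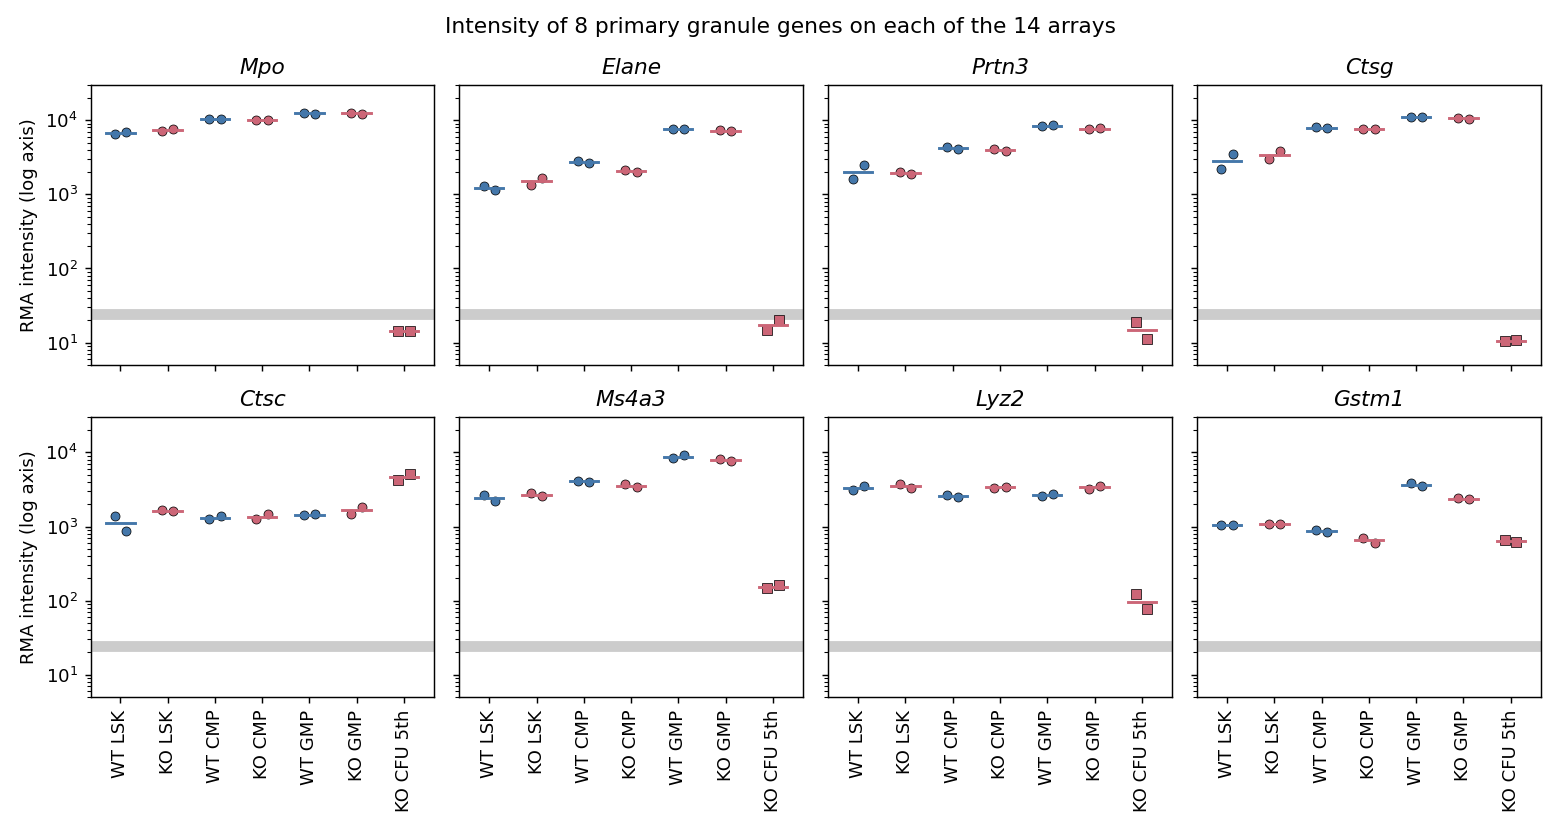
RMA intensity (log axis) of the brightest probe set of each gene on each array, with WT in blue, KO in red, replated cells as squares and the geometric mean of the 2 arrays as a line. The grey band is the range of the floors of the 14 arrays, from 20.8 to 27.8. Mpo, Elane, Prtn3, Ctsg and Ms4a3 climb from LSK through CMP to GMP, and Gstm1 is highest in GMP. Ctsc and Lyz2 did not pass between sorted populations of the same genotype. The replated cells are at the floor for 4 genes.

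From LSK to GMP, 6 of the 8 genes rose and 0 fell in WT, where 7.09% of all genes passed in either direction, and 6 rose and 0 fell in KO, where 7.18% passed. The median difference over the 8 genes was 1.83 in WT and 1.36 in KO, against 0.07 over all genes in each. Late neutrophil transcripts were present in these arrays. The summed intensity of 14 late neutrophil genes was 15080 to 23510 on LSK arrays, 13090 to 21300 on CMP arrays and 14160 to 17200 on GMP arrays, and Itgam was the 1 gene below the floor on every sorted array. S100a9, a calprotectin subunit of mature neutrophils, read 7778 to 8907 in WT LSK and 4693 to 5348 in WT GMP. The part of such transcripts in the LSK levels of the granule genes was not tested. On these bulk arrays, fewer cells with a transcript and less of it per cell cannot be told apart.

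The course was split into the step from LSK to CMP and that from CMP to GMP. In WT, 4 of 8 genes rose at the first step, where 1.53% of all genes passed: Ctsg by 1.52 ± 0.20, Elane by 1.17 ± 0.16, Ms4a3 by 0.75 ± 0.14 and Mpo by 0.64 ± 0.11. Prtn3 was 1.09 ± 0.26 higher and did not pass (limma adjusted p = 0.0895). At the second step 3 of 8 rose in WT, where 0.89% of all genes passed: Gstm1 by 2.07 ± 0.12, Elane by 1.47 ± 0.16 and Ms4a3 by 1.12 ± 0.14.

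In KO cells, 2 of 8 genes passed at the first step, against 1.15% of all genes, with Ctsg up by 1.18 ± 0.20 and Gstm1 down, at -0.71 ± 0.12. At the second step 3 of 8 rose, against 0.769%, and they were the 3 genes that rose in WT: Gstm1 by 1.87 ± 0.12, Elane by 1.83 ± 0.16 and Ms4a3 by 1.16 ± 0.14. Of the whole rise of Ctsg on the log2 scale, 75.8% in WT and 71.3% in KO lay in the first step. For Mpo it was 73.0% and 61.3%. Mpo lay within 2-fold of the array maximum on 8 arrays and Ctsg on 4, the other genes on 0. Compression of the second step of Mpo and Ctsg was not tested. For Ms4a3 the first step held 40.0% and 25.5%, for Elane 44.3% and 20.1%, and for Prtn3 52.4% and 52.3%.

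The difference between the steps was itself tested, in contrasts added after the values were seen. Gstm1 was the 1 gene of 8 to pass in WT, where 0.137% of all genes passed, with a second step larger by 2.35 ± 0.22 (limma adjusted p = 0.00439). It was also the 1 of 8 in KO, where 0.0989% passed, at 2.58 ± 0.22 (adjusted p = 0.00573). For Ctsg the value was -1.03 ± 0.35 in WT (adjusted p = 0.521) and -0.70 ± 0.35 in KO (adjusted p = 0.698). For Mpo it was -0.40 ± 0.19 in WT (adjusted p = 0.805) and -0.16 ± 0.19 in KO (adjusted p = 0.92). For Elane the KO value was 1.37 ± 0.28 (adjusted p = 0.155).

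**Figure D2:**
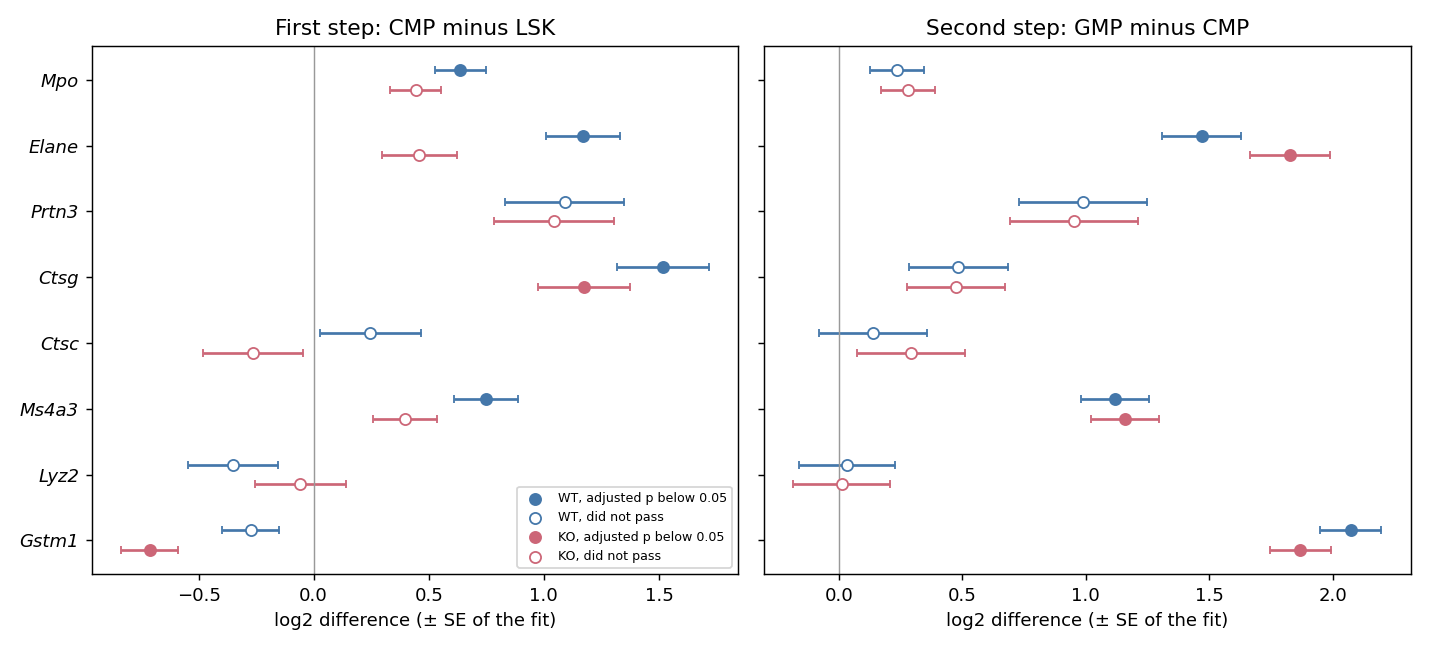
Log2 difference with its SE for each gene from LSK to CMP (left) and from CMP to GMP (right), in WT (blue) and KO (red), with filled points where the adjusted p was below 0.05. Ctsg and Mpo have larger values at the first step, but their difference between the steps did not pass in either genotype. Gstm1 lay below 0 at the first step and near 2 at the second, and Elane and Ms4a3 passed at the second step in both genotypes.

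The calls at single steps rested on few arrays. Without either WT CMP array 0 of the 4 WT calls at the first step passed, with adjusted p from 0.0515 for Ctsg to 0.185 for Ms4a3. The Mpo call also ended without WT LSK replicate 1 (adjusted p = 0.107). The Ms4a3 call also ended without WT LSK replicate 2 (0.093), either KO GMP array (0.0623) or either replated array (0.0552), and with the replicate number as a block (adjusted p = 0.0502). Prtn3 passed without WT LSK replicate 2 (0.0356) or either replated array (0.0493), and with 16 added to every intensity before the log (0.0307). At the second WT step, Elane ended without WT CMP replicate 2 (0.0513) and Ms4a3 without WT CMP replicate 1 (0.0572), WT CMP replicate 2 (0.0635) or WT GMP replicate 2 (0.0638). In KO, the Ms4a3 call ended without KO CMP replicate 2 (0.0503) or KO GMP replicate 1 (0.0649).

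The KO calls at the first step were lost more often. That of Ctsg ended without any 1 of 9 arrays, namely KO LSK replicate 1 and both arrays of WT CMP, KO CMP, KO GMP and replated cells (adjusted p from 0.0539 to 0.116). That of Gstm1 ended without either array of KO LSK, WT CMP, KO GMP or replated cells or KO CMP replicate 2 (0.0578 to 0.147). With 16 added, Mpo (0.0198) and Prtn3 (0.043) also passed, which raised the count from 2 to 4. The Ctsg and Gstm1 calls also ended with array quality weights (0.0613 for Ctsg and 0.116 for Gstm1), and that of Gstm1 and the WT call of Ms4a3 ended with all probe sets fitted (0.0519 and 0.0549). Every rise from LSK to GMP named above passed without any 1 of the 14 arrays. In a fit on the 4 arrays compared alone, 0 single-step calls passed. From LSK to GMP that fit called Elane, Ms4a3 and Gstm1 in WT and Elane and Prtn3 in KO, and the adjusted p of the others lay between 0.0527 and 0.139.

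The granule enzymes were read against 16 other primary granule and early granulocyte genes. From WT LSK to WT GMP 10 of the 16 rose and 0 fell, with a median of 1.16, and in KO 9 rose and 0 fell, with a median of 1.11. Hp (haptoglobin) rose by 4.37 ± 0.36 in WT, from 140.0 to 231.8 in LSK to 3340 to 4166 in GMP. Clec5a, a myeloid lectin receptor, rose by 4.04 ± 0.38, and Alas1, the first enzyme of the haem synthesis that peroxidases need, by 3.40 ± 0.32. Slpi, an inhibitor of elastase and cathepsin G, rose by 3.59 ± 0.34, from 175.5 to 325.4 to 2738 to 3014.

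Of 11 factors known to act on the granule genes, 3 rose and 0 fell from LSK to GMP in each genotype. In WT these were Irf8 (1.45 ± 0.19), Spi1, which encodes PU.1 (1.08 ± 0.18), and Cebpa (0.66 ± 0.14). In KO they were the same 3, Irf8 by 2.67 ± 0.19, Spi1 by 1.11 ± 0.18 and Cebpa by 0.86 ± 0.14. Myb read 9514 to 10110 in WT LSK and 10030 to 10210 in WT GMP, and Runx1 3880 to 4161 and 3510 to 3619. Neither passed.

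Of 13 monocyte genes, 6 rose and 0 fell from LSK to GMP in WT, and 8 rose and 0 fell in KO. By step, 6 rose from LSK to CMP in WT and 5 in KO, and 0 passed from CMP to GMP in either genotype. F13a1, a coagulation factor subunit of monocytes, rose by 2.90 ± 0.32 in WT, and Ccr2, a chemokine receptor, by 2.83 ± 0.32. Of 14 late neutrophil genes 1 rose and 1 fell in each genotype, and their median difference was -0.64 in WT and -0.03 in KO.

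KO cells were compared with WT cells in each sorted population, the question named in the design of the series. In all of these comparisons genotype cannot be told apart from sex. Of the 8 genes 0 passed in LSK, where 0.264% of all genes passed, 0 in CMP, where 0.121% passed, and 0 in GMP, where 0.0934% passed. Averaged over the 3 populations 0 of 8 passed, against 0.308%. At an unadjusted p below 0.05 the numbers with limma were 1, 2, 1 and 2 of 8, against 9.91%, 6.13%, 4.43% and 9.11% of all genes. The median difference over the 8 genes was 0.15 in LSK, -0.07 in CMP, -0.06 in GMP and -0.02 on average, against 0.02, 0.05, 0.02 and 0.03 over all genes.

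The averaged differences of Mpo, Elane, Prtn3, Ctsg and Ms4a3 were the smallest of the 8 genes. For Mpo the averaged difference was 0.03 ± 0.06, with a 95% interval of -0.11 to 0.18, which allows between 0.926-fold and 1.13-fold. For Elane it was -0.06 ± 0.09 (-0.27 to 0.15), for Ctsg 0.06 ± 0.12 (-0.20 to 0.32), for Ms4a3 -0.06 ± 0.08 (-0.24 to 0.12) and for Prtn3 -0.08 ± 0.15 (-0.42 to 0.26). The interval of Prtn3 was the widest of the 8 genes. For Ctsc the averaged difference was 0.27 ± 0.13 (-0.02 to 0.55). The intervals are not adjusted for the number of genes. The averaged ones of Mpo, Elane, Prtn3, Ctsg, Ctsc and Ms4a3 include 0 and lie within a change of 1.5-fold. In a single population the interval of Prtn3 in GMP reached from 0.612-fold to 1.38-fold. That of Elane in CMP, from -0.78 to -0.05, left out 0.

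Gstm1 was the gene nearest to the threshold. Its KO arrays were below its WT arrays in CMP, 707 and 603 against 898 and 835, and in GMP, 2407 and 2369 against 3819 and 3477. In LSK the KO arrays were slightly above, 1068 and 1071 against 1038 and 1055. The difference was -0.61 ± 0.12 in GMP (limma adjusted p = 0.322, 95% interval -0.89 to -0.33), -0.41 ± 0.12 in CMP (adjusted p = 0.578) and 0.03 ± 0.12 in LSK (adjusted p = 0.976). Averaged it was -0.33 ± 0.07 (adjusted p = 0.145, unadjusted p = 0.00124), and with 16 added to every intensity before the log it passed, at an adjusted p of 0.0459. The second bright probe set gave -0.62 ± 0.12 in GMP and -0.36 ± 0.12 in CMP. A dimmer one above the floor gave -0.50 ± 0.19 in GMP and 0.08 ± 0.19 in CMP, so the direction in CMP differed between probe sets. Gstm1 lies on chromosome 3, as does Tet2, and any part of this position in the difference was not tested. Of its 6 mu-class relatives 0 passed in any of these comparisons. Their averaged differences all lay above 0, unlike that of Gstm1, with a median of 0.295. In CMP 5 of the 6 lay above 0 (median 0.828) and in GMP 5 (median 0.087). Gstm5, at 690.6 to 894.5 in WT GMP and 700.1 to 970.2 in KO GMP, overlapped between the genotypes.

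Lyz2 read higher in KO than WT in CMP and GMP, at 3322 and 3430 against 2662 and 2518 and at 3234 and 3578 against 2567 and 2729. The 95% intervals of these differences, -0.06 to 0.82 in CMP and -0.08 to 0.80 in GMP, include 0. Averaged the difference was 0.28 ± 0.11 (limma adjusted p = 0.503). Its neighbour Lyz1, whose probe set may share signal with that of Lyz2, had a similar split in GMP, with 4360 to 4501 in KO and 3296 to 3714 in WT. Monocytes also make Lyz2. The 13 monocyte genes summed to 19390 to 20190 in KO GMP and 15450 to 16910 in WT GMP. In CMP the order was reversed, with 13750 to 14360 in KO and 14380 to 15790 in WT. Of these genes 0 passed between KO and WT in CMP or GMP. Their part in the Lyz2 difference was not tested. Ctsc in LSK was 1662 and 1595 in KO and 1392 and 882 in WT, a difference of 0.55 ± 0.22 (adjusted p = 0.436). It was 0.23 without WT LSK replicate 2 and 0.88 without WT LSK replicate 1, and the other Ctsc probe sets gave -0.06 ± 0.50 and -0.81 ± 0.78.

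Whether the difference between KO and WT varied between populations was tested as a difference of differences. Of the 8 genes 0 passed between CMP and LSK, where 0.022% of all genes passed, 0 between GMP and LSK, where 0.0055% passed, and 0 between GMP and CMP, where 0% passed. Elane had a KO difference of 0.29 ± 0.16 in LSK and -0.42 ± 0.16 in CMP, so that its KO arrays lay above WT in LSK and below WT in CMP. The difference between these was -0.71 ± 0.23 (limma adjusted p = 0.56, unadjusted p = 0.0124). For Gstm1 the effect in GMP was lower than in LSK by -0.64 ± 0.18 (adjusted p = 0.551, unadjusted p = 0.0051).

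**Figure D3:**
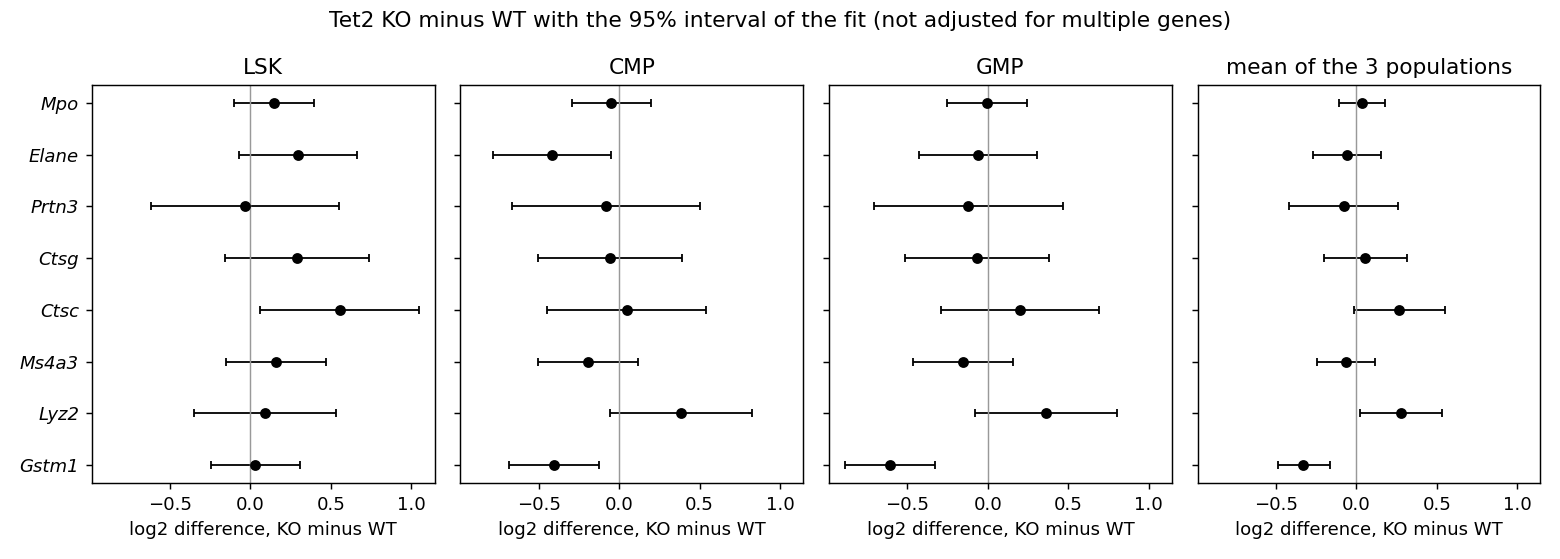
Log2 difference between KO and WT for each gene in LSK, CMP, GMP and averaged over the 3, with the 95% interval of the fit, not adjusted for multiple genes. The interval leaves out 0 for Ctsc in LSK, Elane and Gstm1 in CMP, Gstm1 in GMP, and Lyz2 and Gstm1 on average. Those of Lyz2 include 0 in each single population. After adjustment 0 of 8 genes passed in any panel.

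The replated KO cells differed from every sorted KO population. Mpo was 14.1 and 14.2, Elane 14.8 and 19.9, Prtn3 19.2 and 11.2 and Ctsg 10.5 and 10.7, all below the floor on both arrays. Ms4a3 was 146 and 164 and Lyz2 121 and 77.9, low but above the floor. Gstm1 kept 651 and 618, close to KO CMP, and Ctsc was 4222 and 5142, above every sorted array.

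Relative to KO GMP, 7 of the 8 genes fell and Ctsc rose, where 25.3% of all genes passed in either direction. Mpo was at least 568-fold lower, Ctsg at least 491-fold, Prtn3 at least 356-fold and Elane at least 335-fold, each against the mean floor of the 2 replated arrays (limma adjusted p from 1.52e-10 for Mpo to 1.55e-08 for Prtn3). Ms4a3 was 51.2-fold lower, at -5.68 ± 0.14, and Lyz2 35.0-fold lower, at -5.13 ± 0.20. Gstm1 was 3.76-fold lower, at -1.91 ± 0.12. Ctsc was 2.80-fold higher, at 1.49 ± 0.22 (adjusted p = 0.000829).

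Relative to KO LSK, the whole gate of which the CD150+ cells put in culture are a subset, 7 fell and 1 rose, where 25.1% of all genes passed. Mpo was at least 344-fold lower, Ctsg at least 157-fold, Prtn3 at least 89.3-fold and Elane at least 68.7-fold. Ms4a3 was 17.4-fold and Lyz2 36.2-fold lower, Gstm1 differed by -0.75 ± 0.12, and Ctsc was 2.86-fold higher. Relative to KO CMP, 6 fell and Ctsc rose, where 24.4% of all genes passed, and Gstm1 did not pass, at -0.04 ± 0.12 (limma adjusted p = 0.875). The 3 comparisons share the replated arrays. With values below the floor set to it, the median over the 8 genes was -5.64 against LSK, -5.84 against CMP and -7.03 against GMP, where the median over all genes was 0.01, -0.21 and -0.23.

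The rise of Ctsc passed at its brightest probe set alone. The other probe sets read 195 and 212 against 75.5 and 106 in KO GMP, and 613 and 903 against 238 and 124. Their differences of 1.18 ± 0.50 and 2.12 ± 0.78 had the same direction with larger errors and did not pass (limma adjusted p = 0.154 and 0.102), and their arrays did not overlap between the groups.

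Among the 16 other primary granule and early granulocyte genes 4 rose and 7 fell in replated cells relative to KO GMP. Nkg7, a granule membrane protein, fell by 5.96 ± 0.17 and Hp by 6.49 ± 0.36. Ctsd, an aspartic protease of lysosomes, rose by 2.50 ± 0.14, from 968.3 to 984.7 to 5438 to 5637, and Serpinb1a, an inhibitor of the granule serine proteases, by 1.21 ± 0.13, from 2874 to 2958 to 6487 to 7051. Srgn, the proteoglycan core that holds granule proteases, rose by 0.39 ± 0.11 (limma adjusted p = 0.0243). Serpinb1a and Srgn were chosen after their values were seen. The median of the list was -0.14.

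Among the 11 factors, 1 rose and 5 fell. Cebpa fell by 6.69 ± 0.14, from 6883 to 7367 in KO GMP to 62.7 to 75.8, and Spi1 by 1.27 ± 0.18, from 288.2 to 336.8 to 126.3 to 131.3. Irf8 and Csf3r, the receptor for G-CSF, were below the floor in replated cells, at 9.52 to 13.7 and 9.54 to 10.6. Runx1 rose by 0.92 ± 0.12. Myb fell by 0.34 ± 0.11 (limma adjusted p = 0.0473), from 10720 to 11010 to 8353 to 8827. Spi1 and Myb are named because their motifs were searched.

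Other cell types moved at the same time. Of 14 late neutrophil genes 9 fell and 0 rose, their summed intensity was 235 to 255 and 9 of 14 were below the floor in replated cells, S100a8 (16.4 to 17.7) among them. Of 13 monocyte genes 10 fell and 1 rose, with a sum of 2459 to 2792. Of 6 eosinophil genes 4 fell and 0 rose, and Epx, the eosinophil peroxidase, was below the floor.

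Of 14 mast cell and basophil genes 12 rose and 1 fell, and 0 were below the floor. Their summed intensity was 99580 to 102700 in replated cells and 9058 to 13090 on sorted arrays. The mast cell protease genes Cma1 (15290 to 15570, from 24.1 to 34.4 in KO GMP), Mcpt4 (3671 to 3725, from 5.54 to 7.61) and Tpsab1 (1100 to 1141, from 8.02 to 8.11) were among them. Their part in the high Ctsc and the low Mpo, Elane, Prtn3 and Ctsg was not tested.

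**Figure D4:**
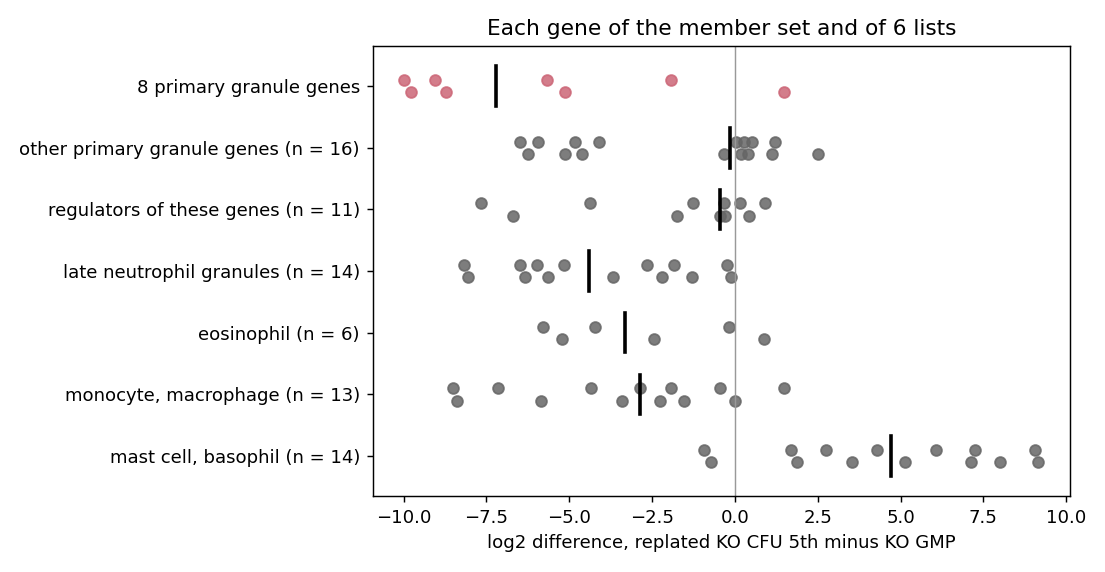
Log2 difference between replated KO CFU 5th and KO GMP for each of the 8 genes (red) and each gene of 6 lists (grey), with the median as a black bar. Values are as fitted, so genes below the floor in replated cells have only a bound there. Of the 8 genes 7 lie below 0, as do most late neutrophil, eosinophil and monocyte genes, and 12 of 14 mast cell and basophil genes rose.

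The genomic neighbours of the granule genes were read after the values were seen. They were taken among the genes read on the arrays, so coding genes without a reading were passed over. Next to Ctsg on chromosome 14, in RefSeq order, Mcpt8 was 936 in KO GMP and 491 in replated cells, a fall of 0.93, and Mcpt4 and Mcpt2 beyond it went from 6.49 and 7.30 to 3698 and 3543. On the other side Gzme, Gzmd and Gzmg were below the floor in both groups. The serine protease genes of 1 cluster thus moved in opposite directions in replated cells. The same held for Ms4a3 on chromosome 19, whose neighbour Ms4a2, a chain of the IgE receptor, went from 369 to 7291.

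At the shared locus of Prtn3 and Elane, Plppr3 on one side was 157 in KO GMP and 44.1 in replated cells. Med16, the nearest gene with a reading on the other side but not the next coding gene, was 122 and 39.3. Plppr3 and Med16 both passed (limma adjusted p = 7.0e-04 and 0.00308), by less than the bounds for Prtn3 and Elane. Lyz1 fell with Lyz2, from 4430 to 141, and next to Ctsc Rab38 rose with it, from 990 to 3239. Lyz1 and Lyz2 have similar sequences, so their probe sets may share signal.

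Likeness between genes was described by Pearson's r of log2 intensity, without a test, since arrays share their groups. Over the 12 sorted arrays r was 0.992 between Elane and Ms4a3 and also between Mpo and Ctsg, 0.948 between Elane and Prtn3 and 0.875 between Elane and Ctsg. For Ctsc r with the other genes lay between 0.107 and 0.413, and for Lyz2 with Mpo it was -0.439. With the replated arrays included, Ctsc and Mpo had r = -0.914 and Lyz2 and Mpo 0.984, values set largely by the 2 replated arrays.

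The genes most like each member over all 14 arrays were sought among those that differed at least 2-fold between groups and lay above the floor in at least 1 group. Some lay below it in the others, such as Ryr3 in the sorted cells and Mpeg1, Ms4a6c and Sox4 in replated cells. The replated arrays were included, so a shared fall or rise in those cells can by itself give a high r. Likeness over the sorted arrays alone was not ranked. The likest were BC035044, Plac8 and Cebpa for Mpo (r = 0.999, 0.998 and 0.997), Slc16a1, Mgst1 and Siva1 for Elane (0.989, 0.988 and 0.988) and Stom, Mpeg1 and Cdc42ep4 for Prtn3 (0.997, 0.995 and 0.995). For Ctsg they were Ms4a6c, Cdc42ep4 and Mpeg1 (0.998, 0.997 and 0.996), and for Ms4a3 Slc16a1, Sorl1 and Siva1 (0.989, 0.987 and 0.987). Lyz2 was most like Lyz1, Sox4 and Tmem176b (1, 0.995 and 0.994). Ctsc was most like Mroh1, Uap1 and Ryr3 (0.966, 0.963 and 0.958), and Gstm1 like Prom1, Clec4a2 and Acp5 (0.944, 0.934 and 0.932).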

How the data were processed

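Total RNA of 14 samples was measured on Affymetrix Mouse 430 2.0 arrays after amplification of 5 ng, per the labels' protocols. The deposited values are probe-set intensities that the authors made with RMA, per the submitters' processing notes. Neither its version nor joint normalization of all arrays is given in the sources used here. The intensities are on a linear scale, so log2 was taken. Of the 45101 probe sets, 34958 are annotated with 1 gene, 932 with several, and 9211 are not in the platform annotation. A gene was read at its probe set with the highest mean, which left 18194 genes.

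The titles gave 7 groups of 2 arrays. limma 3.58.1 in R 4.3.3 (lmFit, eBayes) fitted 1 mean per group over all 14 arrays, with 7 residual and 2.19 prior degrees of freedom. The p-values were adjusted by Benjamini-Hochberg over the 18194 genes of each comparison, and tests were two-sided. Across genes, the 2 arrays of a group correlated at r = 0.9613 to 0.9929, and their number limits the precision. No scan date was used, so no batch was tested.

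The floor was the brightest of 27 bacterial control probe sets of each array, chosen with the data in view. A gene below it on both arrays of a group has a bound there, the other group's mean over the mean floor. Promoter windows came from a RefSeq table (8 of 8 genes matched), cut to the 250 bases before the start. Gene order came from a RefSeq table of GRCm38.p6.

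Named were all 13 probe sets, up to 4 genes per list and comparison by smallest p, the 3 genes most like each member, and the promoters of members that rose from LSK to GMP. Other genes named are said to be chosen after their values were seen or are gate, sex-linked or motif genes. The members, the 13 gene lists and the tests were chosen with earlier results of these data known. Same-numbered arrays of different groups did not deviate together (correlations from -0.103 to 0.10), so the numbers do not pair them. Alternatives were another choice of probe sets, a filter on dim genes, 16 added before the log, quantile normalization again, a fit on the arrays compared alone, array weights, the replicate number as a block, and each array left out.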

Additional observations from a re-analysis of the deposited data

How the results depend on the processing

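Of the 47 member differences that passed in the 13 comparisons and 3 differences of effects, 47 passed without dim genes and after quantile normalization, 45 with all probe sets fitted, 45 with array weights and 28 with the compared arrays alone. With 16 added to each intensity 47 passed and 4 more did, and 0 reversed in any of these settings. A fit on the compared arrays alone has fewer samples. It called 0 members from WT LSK to WT CMP, 0 from WT CMP to WT GMP, 3 from WT LSK to WT GMP, 0 from KO LSK to KO CMP, 0 from KO CMP to KO GMP and 2 from KO LSK to KO GMP, where all arrays gave 4, 3, 6, 2, 3 and 6. From KO LSK to KO CMP the 2 calls became 1 with all probe sets fitted, 4 with 16 added and 0 with array weights, and 16 added gave 1 call (Gstm1) in the averaged KO and WT comparison. The cause was not tested.

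Leaving out 1 array at a time gave 0 to 4 calls from WT LSK to WT CMP, 1 to 3 from WT CMP to WT GMP, 0 to 2 from KO LSK to KO CMP and 2 to 3 from KO CMP to KO GMP. It left the counts of the other comparisons as they were, and 38 of the 47 calls passed without each array. Where an array is left out, the lone array of its group is assumed to vary like the other groups. With the replicate number as a block, 46 of 47 calls passed, Ms4a3 from WT LSK to WT CMP being the exception, and the block moved no count of calls by over 1.5 times: the counts were 0, 0, 0, 0, 3, 3, 6, 2, 3, 6, 8, 7, 8 and 0 in the order of the comparisons of genotypes, WT populations, KO populations, replated cells and effects. Signals below the floor set the limit for Mpo, Elane, Prtn3 and Ctsg in replated cells.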
